A study of Mus musculus with 4 samples.

Results

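Chromosome 17 carried 444 of the 7353 SSRP1 peaks in the 2 peak lists of this series, 296 of 5011 in replicate 1 and 148 of 2342 in replicate 2. Its members are all peaks that either list places on this chromosome. They were taken by chromosome alone from lists that hold only the peaks the authors called, with no further selection by enrichment. The largest q-value was 0.0471 in replicate 1 and 0.0331 in replicate 2. SSRP1 was mapped by ChIP-seq, the sequencing of DNA recovered with an antibody, in E14 mouse embryonic stem cells grown in serum with LIF. The samples are 2 SSRP1 ChIPs, made with the BioLegend antibody #609702, and 2 inputs, each numbered 1 and 2. All came from E14 cells, and no treatment or genotype difference is named. Values of the inputs were not analysed here. Nothing in the labels says that the numbered samples were grown separately, so their spread may be technical. Coordinates are those of the mm9 build, with the first base of a chromosome as 1. Without an mm9 annotation or genome, peaks are given no gene, exon, intron or UTR and no sequence.

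SSRP1 and its partner SUPT16H make up FACT, which loosens nucleosomes in front of polymerases and restores them behind, and which is commonly found over transcribed genes. Mouse chromosome 17 holds the major histocompatibility complex (MHC), a long gene-dense region of antigen presentation, complement and cytokine genes. In the RefSeq gene table of another build, GRCm38, 38 protein-coding genes of this chromosome have symbols that begin with H2-, the mouse MHC prefix. The antigen-peptide transporter genes Tap1 and Tap2, the complement gene C4b, the cytokine gene Tnf and Pou5f1, which encodes the pluripotency factor OCT4, lie among them in that table's gene order. These names describe the region and were not matched to peaks. The MHC is represented below by a fixed window of 5 Mb, from 33 to 38 Mb.

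Each list gives for every peak the authors' fold enrichment at its summit over the local background and a −log10 q. Peaks of the 2 lists that had 1 bp or more in common were called shared. The depth behind a peak is the number of ChIP fragments over its summit, which was recovered from the fold and the p-value. On chromosome 17 replicate 1 had between 11 and 296 such fragments per peak (median 19), and replicate 2 between 27 and 400 (median 44). One fragment of replicate 2 counted as 0.416 after scaling, so these numbers are not on 1 scale between the lists.

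Chromosome 17 was among the shortest autosomes and the second most densely occupied. Its peaks spanned 90.1 Mb, from 4995836 to 95085456, the third shortest span of the 19 autosomes. Over that span replicate 1 had 3.29 peaks per Mb, where the other 18 autosomes ranged from 1.23 to 3.48 with a median of 2.05. Replicate 2 had 1.64 peaks per Mb, against a range of 0.563 to 1.84 and a median of 0.876. In both lists chromosome 11 alone was denser. The bases covered by peaks gave the same place, with 1542 bp per Mb in replicate 1 and 1090 bp per Mb in replicate 2, against medians of 827 and 469 bp per Mb on the other autosomes. With −log10 q of 5 or more the chromosome was first in replicate 2, and with 10 or more it was the third.

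The chromosome's share of each list was similar. It held 5.91% of replicate 1's peaks and 6.32% of replicate 2's. Among autosomal peaks the odds ratio of replicate 2 to replicate 1 was 1.09 (two-sided Fisher's exact test, Benjamini-Hochberg adjusted p = 0.541 over 19 autosomes), and 10.5% of the autosomes passed this test. All Fisher tests here treat peaks as independent, which neighbouring peaks are not, so they describe these 2 lists.

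Single peaks of chromosome 17 were of ordinary size. Replicate 1's median width of 300 bp (interquartile range 239 to 476 bp) and replicate 2's of 356.5 bp (254 to 779 bp) were each the sixth highest of the 19 autosomes. The median fold of 4.59 in replicate 1 (3.95 to 5.49) was the sixth highest, and that of 5.37 in replicate 2 (4.52 to 6.49) the ninth. Chromosome 17 thus ranked higher by peaks per Mb than by the height or width of a typical peak. Peaks of 1 kb or more made up 7.77% of replicate 1's list on this chromosome and 14.9% of replicate 2's, against 5.17% and 12.0% on the other autosomes.

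**Figure D1:**
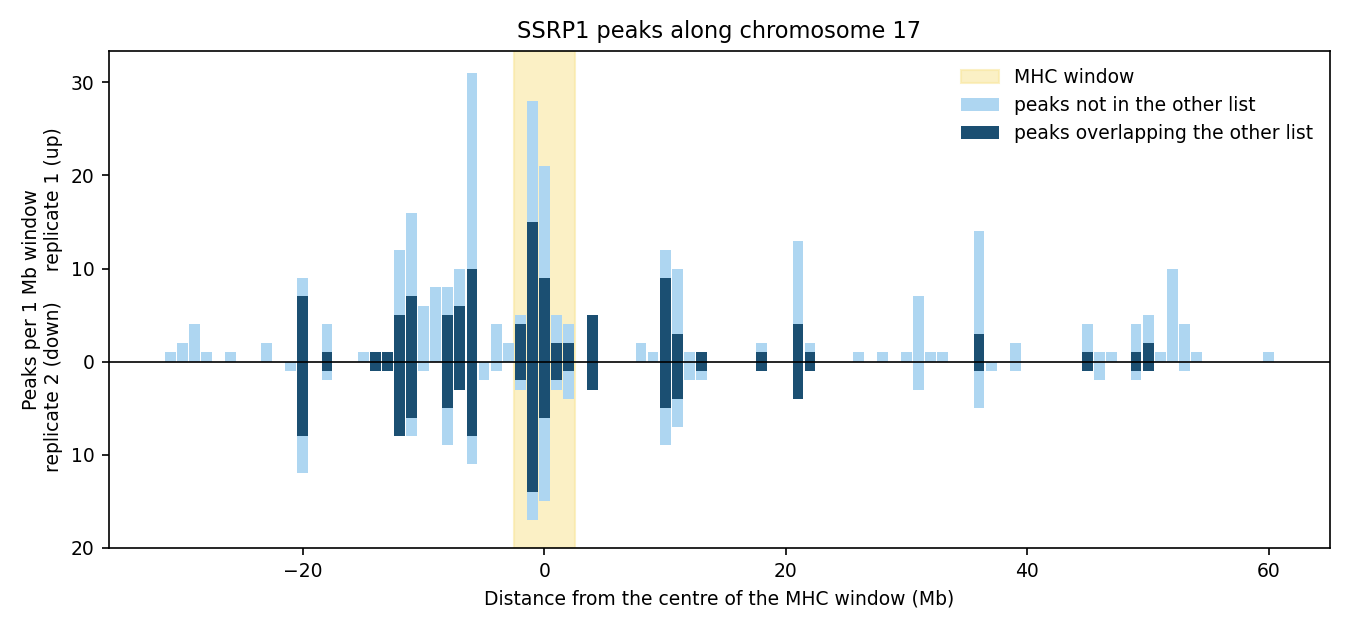
Peaks per 1 Mb window of chromosome 17 against distance from the centre of the MHC window in Mb, with replicate 1 upward and replicate 2 downward; dark bars are shared peaks, light bars the others, and the shaded band is the MHC window. The tallest bars stand in and shortly before the band, with 31 and 28 peaks of replicate 1 in the windows from 29 to 30 Mb and from 34 to 35 Mb, while long stretches hold none.

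Peaks were gathered in a few stretches, mainly before 47 Mb, as the plot of counts along its length shows. Of 92 windows of 1 Mb, 39 held no peak of replicate 1 (42.4%), 57 held none of replicate 2 (62.0%), and 36 held none of either. Windows with 5 or more peaks numbered 20 in replicate 1 and held 235 of its 296 peaks (79.4%), the highest such share of the 19 autosomes, where the others ranged from 30.8 to 75.1%. In replicate 2 there were 10 such windows with 101 of 148 peaks (68.2%), which was the fourth highest share. The 5 fullest windows alone held 110 peaks of replicate 1 (37.2%) and 64 of replicate 2 (43.2%).

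The dense part ran from 23 to 38 Mb. The 7 Mb from 23 to 30 Mb held 91 peaks of replicate 1 (30.7%) and 40 of replicate 2 (27.0%). The 3 Mb that followed, from 30 to 33 Mb, held 6 and 3 peaks, none of them shared. The MHC window held 63 and 42. The edges of these stretches, other than those of the MHC window, were drawn after the counts had been seen. The MHC window was fixed, but it was chosen with earlier results of these data known.

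The rest of the chromosome was sparse with isolated clusters. Up to 15 Mb there were 11 peaks of replicate 1 and 1 of replicate 2, and none was shared. From 47 to 56 Mb there were 4 and 5 peaks, and from 72 to 80 Mb there were 2 in each list. Between these sparse stretches stood clusters in the windows from 45 to 47 Mb (22 and 16 peaks), from 56 to 57 Mb (13 and 4) and from 71 to 72 Mb (14 and 5). From 80 to 90 Mb replicate 1 had 31 peaks and replicate 2 had 7.

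The 5 longest distances between neighbouring summits, both lists pooled, all lay beyond 48 Mb. The longest was 5.78 Mb, from 74815927 to 80598568. The next was 5.72 Mb, between 89363680 and the last peak of the chromosome at 95085299, which replicate 1 alone contained. The others were 4.96 Mb from 48548681 to 53509297, 4.18 Mb from 57170648 to 61350585, and 3.09 Mb from 68084894 to 71178705. These gaps were short beside those of other autosomes, whose longest pooled gaps ranged from 5.03 to 13.9 Mb with a median of 7.91 Mb. Neighbouring summits of replicate 1 lay a median of 21.5 kb apart, the shortest of the 19 autosomes (others 22.1 to 278 kb). In replicate 2 the median was 11.8 kb, the third shortest. Of the distances between neighbours, 47.1% were under 10 kb in replicate 1 and 47.6% in replicate 2. The other autosomes had medians of 36.3% and 42.4%. By this share chromosome 17 was the highest in replicate 1 and the fifth highest in replicate 2.

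The window with the most shared peaks, from 34 to 35 Mb, lay in the MHC window. It held 28 peaks of replicate 1, 15 of them shared, and 17 of replicate 2, 14 of them shared. The window from 29 to 30 Mb held more peaks of replicate 1 (31) and fewer of replicate 2 (11), with 10 and 8 shared. Joining peaks of a list that lay within 1 kb turned those 31 peaks into 7 regions and the 11 into 5. By shared peaks of replicate 1, the next windows were those from 35 to 36 Mb (21 and 15 peaks, 9 and 6 shared), from 45 to 46 Mb (12 and 9 peaks, 9 and 5 shared) and from 24 to 25 Mb (16 and 8 peaks, 7 and 6 shared). By shared peaks of replicate 2 the order differed, since the windows from 15 to 16 Mb and from 23 to 24 Mb had 8 each. In all, 10 windows held 5 or more shared peaks of replicate 1, and these 10 contained 78 of its 106 shared peaks. After joining peaks within 1 kb only 2 such windows were left, and without peaks of high local background 4 were.

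Several of these windows consisted of chains of close peaks. In the window from 34 to 35 Mb, 15 peaks of replicate 1 followed each other within 1 kb from 34246746 to 34259223, a chain of 12478 bp. Replicate 2 had 9 peaks over the same place, all of them shared, 5 of which formed a chain from 34253942 to 34259394. In replicate 1 the chains at 29180270 to 29188775 and at 29230862 to 29238098 joined 10 and 9 peaks. In replicate 2, 5 peaks were joined from 29179219 to 29186217. Another chain was found in both lists, at 45702610 to 45710194 in replicate 1 (7 peaks) and 45702688 to 45710278 in replicate 2 (3 peaks). Its ends lay close together in the lists although the number of peaks differed.

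Peak counts by window were alike between the replicates. Over the 92 windows Pearson's r was 0.87 and Spearman's rho 0.73, given as a description since windows share the chromosome and empty windows count. On the other autosomes r ranged from 0.32 to 0.91 with a median of 0.72, and chromosome 17 was the third highest. Both lists occupied 32 windows. Replicate 1 occupied 21 more with 44 peaks, and replicate 2 occupied 3 more with 4 peaks.

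The MHC window was among the most densely occupied of the autosomes. Its 12.6 peaks per Mb in replicate 1 and 8.40 in replicate 2 compare with 2.74 and 1.25 per Mb on the rest of the chromosome. Among 470 autosomal windows of 5 Mb laid from 3 Mb onwards, it was the third in replicate 1, tied with 1 other, and the second in replicate 2. The median window held 6 and 2 peaks. A window of chromosome 10, from 78 to 83 Mb, was above it in both lists with 84 and 45 peaks. These densities and ranks count single peaks, also those in chains. Joining peaks of a list within 1 kb left 33 and 23 regions in the MHC window. The rest of the chromosome then had 169 and 73. The MHC window took 21.3% of chromosome 17's peaks in replicate 1 and 28.4% in replicate 2, a difference that did not pass the test (odds ratio 1.47, Fisher's exact test, adjusted p = 0.149 over 3 tests of the window).

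The peaks of the MHC window sat mainly between 34 and 36 Mb. From 33 to 38 Mb the 5 successive windows held 5, 28, 21, 5 and 4 peaks of replicate 1 and 3, 17, 15, 3 and 4 of replicate 2. Of 50 bins of 100 kb, 35 were empty in both lists, 10 were occupied in both, 3 in replicate 1 alone and 2 in replicate 2 alone. The bin from 34.2 to 34.3 Mb, which contains the long chain, was the fullest in both lists with 18 and 9 peaks. The bin from 35.2 to 35.3 Mb held 12 peaks of replicate 1 and 2 of replicate 2, and that from 34.0 to 34.1 Mb held 6 and 7.

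**Figure D2:**
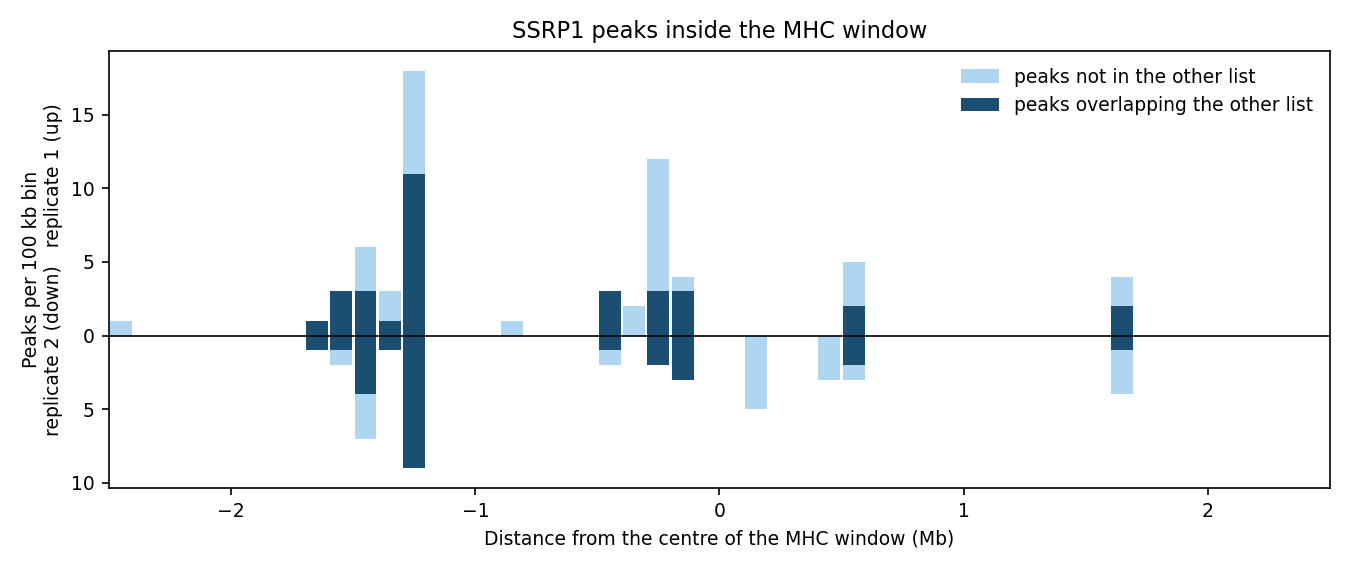
Peaks per 100 kb bin inside the MHC window against distance from its centre in Mb, with replicate 1 upward and replicate 2 downward; dark bars are shared peaks and light bars the others. Most bins are empty, the bin with 18 and 9 peaks stands left of the centre, and 2 bins right of the centre hold peaks of replicate 2 alone.

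Median MHC folds were slightly above those of the rest of the chromosome in replicate 1 and slightly below in replicate 2, a difference that was not tested. Their folds had medians of 4.68 in replicate 1 (middle 50% of peaks 4.15 to 5.50) and 5.34 in replicate 2 (4.60 to 6.00), against 4.58 and 5.47 on the rest of chromosome 17. The highest MHC fold was 11.0 in replicate 1 and 13.2 in replicate 2, where the rest of the chromosome reached 72.9 and 44.9. The median local background was 1.44 times the genome level in replicate 1, as on the rest of the chromosome, and 1.00 times in replicate 2, against 1.06. The local background of the window's peaks did not exceed 3.60 and 2.41 times the genome level.

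In replicate 1, MHC peaks were shared more often than those on the rest of the chromosome. Of its 63 MHC peaks 32 were shared (50.8%, exact 95% binomial interval 37.9 to 63.6%), against 74 of 233 elsewhere on the chromosome (31.8%, 25.8 to 38.2%), with an odds ratio of 2.22 (Fisher's exact test, adjusted p = 0.0222 over 3 tests). This call passed in none of the 8 alternatives run (Fisher's exact test, adjusted p from 0.0530 to 1). The MHC window was also chosen with earlier results of these data known. Without the window from 34 to 35 Mb the odds ratio was 2.03 (Fisher's exact test, adjusted p = 0.171), and among peaks with a −log10 q of at least 10 it came to 0.960. Elsewhere on the chromosome replicate 1's share differed by stretch, from 0% before 15 Mb to 77.8% from 15 to 16 Mb. It was 54.5% from 45 to 47 Mb, 36.3% from 23 to 30 Mb and 12.9% from 80 to 90 Mb. In replicate 2 the shares were 59.5% in the MHC window (25 of 42) and 60.4% elsewhere (64 of 106), with an odds ratio of 0.965 (Fisher's exact test, adjusted p = 1). Without the window from 34 to 35 Mb that odds ratio was 0.516 (Fisher's exact test, adjusted p = 0.178).

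The strongest MHC pairs lay between 34.0 and 36.1 Mb. A pair joins 2 overlapping peaks, 1 from each list, taken in order of the lower of both folds. Each peak is used at most once, so some shared peaks are in no pair. On chromosome 17 the 106 and 89 shared peaks gave 80 pairs. The pair at 34254484 to 34256382, the tallest of the long chain, had a fold of 10.4 in replicate 1 and of 9.72 in replicate 2. The pair at 34087367 to 34088865 had folds of 9.68 and 13.2, with 35 and 95 fragments over the summits. Further pairs of the chain, at 34258918 and 34257553, had folds of 7.93 and 7.91, and of 7.05 and 8.18. In all 4 of these pairs the replicates' summits were 27 to 169 bp apart.

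Some of the other MHC pairs differed more between the lists. At 36053943 to 36055446 the fold was 6.57 in replicate 1 and 12.4 in replicate 2, over local backgrounds of 5.24 and 2.07 in scaled counts. At 35272100 to 35272630 it was 11.0 in replicate 1 and 6.01 in replicate 2. At 35086630 to 35086946 a narrow peak of replicate 1 (317 bp, fold 6.02) lay in a peak of replicate 2 that was 3744 bp wide, from 35085637 to 35089380, with a fold of 12.6. Replicate 1 had 3 peaks within that wide peak. The remaining 3 of the 10 strongest MHC pairs, at 34168682, 34248390 and 35282919, had folds of 5.10 to 5.59 in replicate 1 and of 5.74 to 6.42 in replicate 2.

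A cluster in the MHC window was seen in replicate 2 alone and is named after its values had been seen. It comprised 5 peaks from 35648688 to 35653693 with folds of 3.28 to 5.39, with no peak of replicate 1 closer than 257 kb. Another group of 3, from 35969828 to 35973908, had folds of 4.93 to 5.56 and lay 51.0 to 54.9 kb from the nearest peak of replicate 1. These 8 peaks had −log10 q of 2.00 to 7.95, where the median of replicate 2's peaks on chromosome 17 was 6.25.

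Over the whole chromosome, replicate 1's peaks were shared more often than on the other autosomes. Of its 296 peaks 106 were shared, 35.8% (exact 95% binomial interval 30.3 to 41.6%). Over the whole list 27.7% were, and on the other autosomes 1220 of 4620, or 26.4% (25.1 to 27.7%). The odds ratio was 1.55 (Fisher's exact test, adjusted p = 0.00373 over 19 autosomes), and 26.3% of the autosomes passed this test in 1 direction or the other. Chromosome 13 alone had a higher share, 47.7%, and chromosome 11, with a density like that of chromosome 17, also passed the test.

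The call was lost when chained peaks were joined. When peaks within 1 kb were joined, 27.7% of chromosome 17's regions in replicate 1 were shared and the odds ratio was 1.11 (Fisher's exact test, adjusted p = 0.732). With 50% overlap of both peaks it was 1.04 (Fisher's exact test, adjusted p = 0.903). Leaving out the 1 Mb from 34 Mb gave 1.43 (Fisher's exact test, adjusted p = 0.0541). The call was kept with −log10 q of 5 or more and without peaks of high background, and lost in the other 6 of 8 alternatives.

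In replicate 2, 89 of 148 peaks were shared, 60.1% (51.8 to 68.1%), against 54.9% of the whole list and 53.7% on the other autosomes (51.6 to 55.9%). The odds ratio of 1.30 did not pass the test (Fisher's exact test, adjusted p = 0.506), which 5.26% of the autosomes did.

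**Figure D3:**
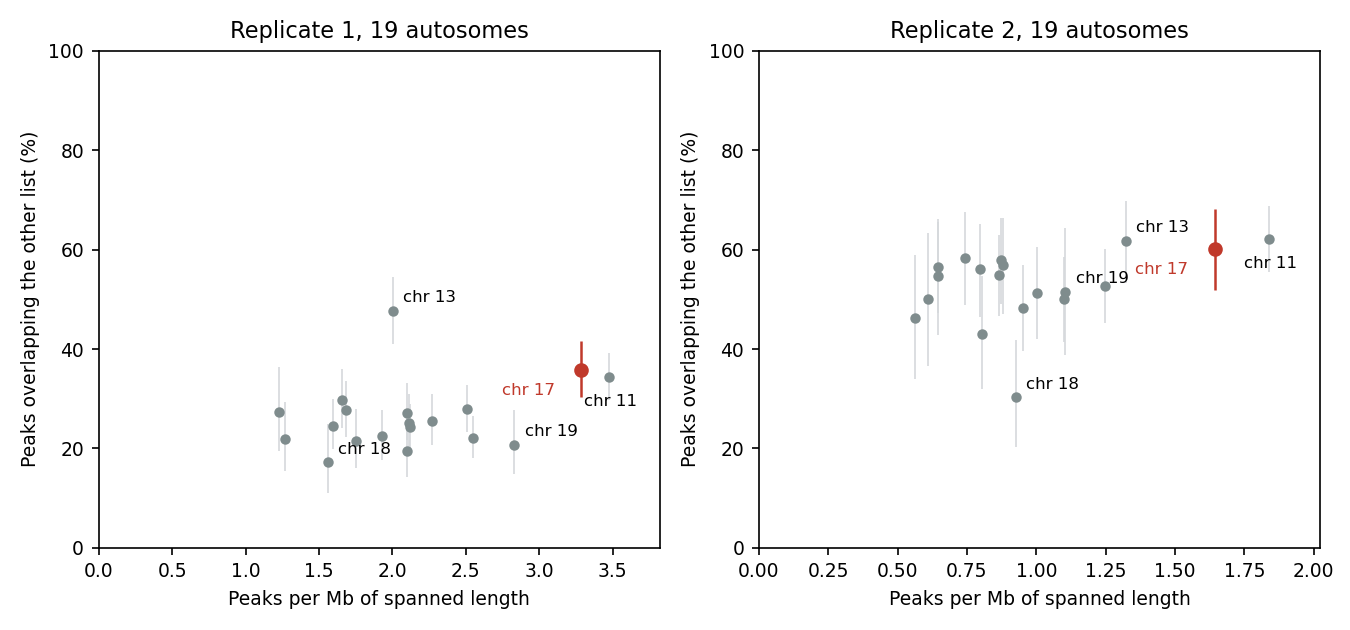
Share of peaks overlapping the other list, in percent, against peaks per Mb of spanned length for the 19 autosomes in replicate 1 (left) and replicate 2 (right); bars are exact 95% binomial intervals and chromosome 17 is red. Chromosome 17 is second from the right in both panels, at 35.8% and 60.1% shared.

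The stronger a peak of chromosome 17, the more often it was shared. Peaks of each list were ranked by −log10 q and cut into 4 groups of equal size. In replicate 1, 68.9% of the top group were shared, then 35.1%, 24.3% and 14.9%. In replicate 2 it was 91.9%, 62.2%, 51.4% and 35.1%. On the other autosomes the top groups reached 56.7% and 84.7%. Of the 20 peaks with the highest −log10 q, 19 of replicate 1 and 18 of replicate 2 were shared. Among the top 20 of all other autosomes together 19 and 20 were. These sets are of unlike strength: their lowest −log10 q was 22.8 and 14.6 on chromosome 17, against 129 and 121 on the other autosomes.

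**Figure D4:**
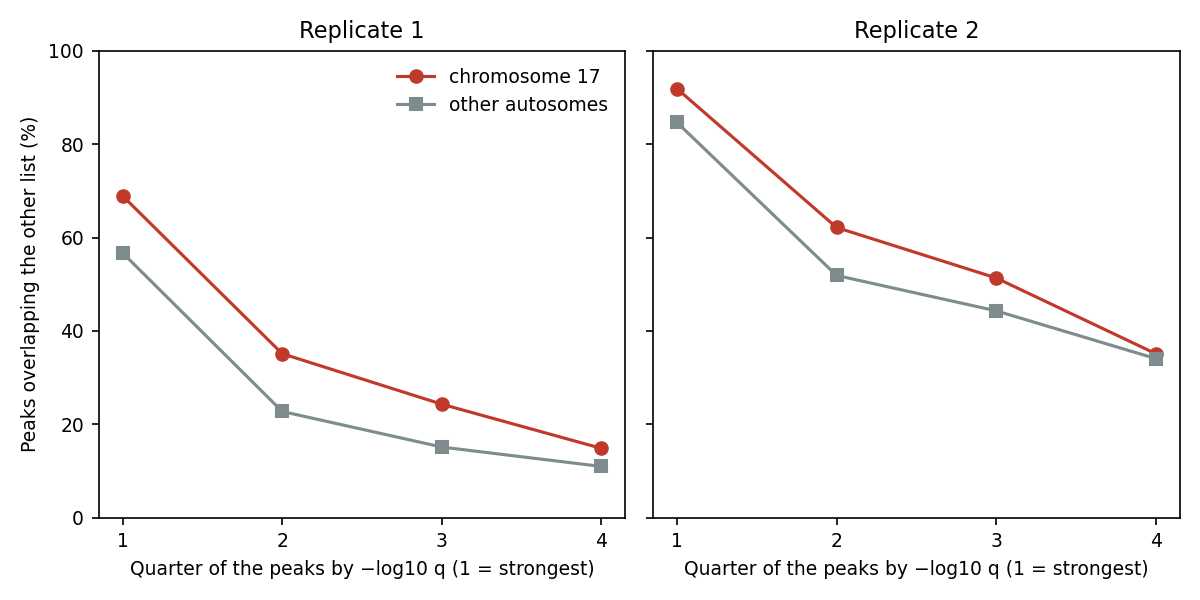
Share of peaks overlapping the other list, in percent, for 4 groups of equal size ranked by −log10 q, on chromosome 17 (red circles) and the other autosomes (grey squares), in replicate 1 (left) and replicate 2 (right). The share falls from 68.9 to 14.9% and from 91.9 to 35.1% on chromosome 17, and its points lie above those of the other autosomes.

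Shared peaks were wider and taller than unshared ones. In replicate 1 the median width was 454.5 bp for shared and 270 bp for unshared peaks of chromosome 17, and the median fold 5.02 and 4.42. In replicate 2 the widths were 459 and 269 bp and the folds 5.88 and 4.79. The same direction held on the other autosomes. Their median widths were 403 and 275 bp in replicate 1 and 426 and 286 bp in replicate 2. The median folds there were 5.33 and 4.36 in replicate 1 and 6.28 and 4.93 in replicate 2. Under the 1 bp rule a wider peak has more room to overlap, so width and sharing are not independent. These differences were not tested, and widths were not compared at equal −log10 q.

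By fold, 1 peak of chromosome 17 stood above all others in both lists, by far in replicate 1 and by less in replicate 2. This peak of 460 bp, from 21938369 to 21938828, had a fold of 72.9 in replicate 1 and of 44.9 in replicate 2, with 238 and 329 fragments over its summit. Its local background was the genome level in both lists, and its summits were 14 bp apart. It stood alone in its window, from 21 to 22 Mb, with 1 peak in each list.

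The second strongest pair was at 39266042 to 39266434, with folds of 20.02 and 30.3. Close to it, at 39244123 to 39244394, the tenth pair had folds of 7.63 and 13.9. The third was at 45708982 to 45710194, at the end of the chain described above, with folds of 10.3 and 16.7. Of the remaining pairs among the 10 strongest, 3 were in the MHC window and have been given. The other 3 were at 46908926 to 46910517 (folds 9.73 and 9.16), at 28465415 to 28466330 (9.03 and 12.5) and at 80605451 to 80606824 (8.65 and 9.40). The last of these was the only one of the 10 beyond 47 Mb.

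**Figure D5:**
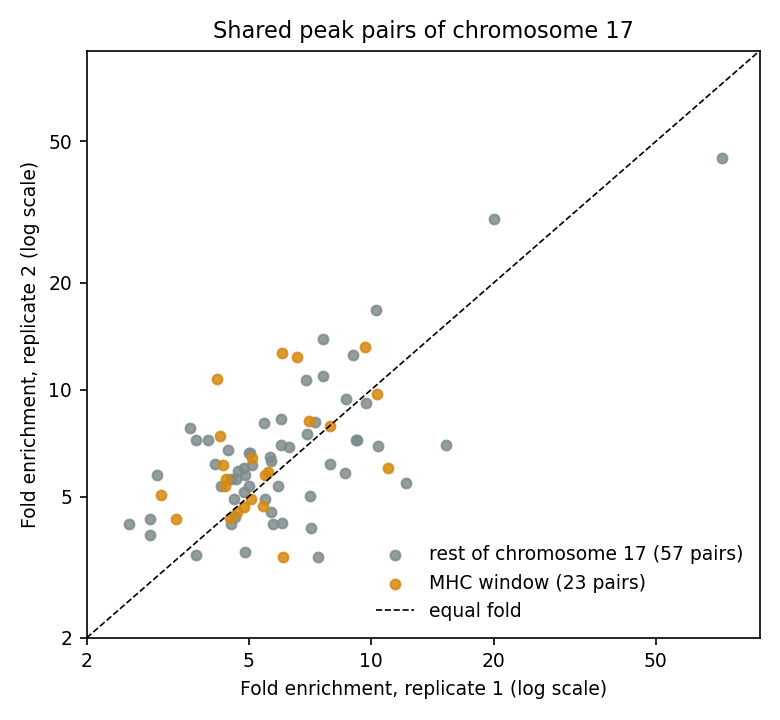
Fold enrichment of the 80 shared pairs of chromosome 17 in replicate 1 (horizontal) and replicate 2 (vertical), both on log scales; orange points are in the MHC window, grey points elsewhere, and the dashed line marks equal folds. The MHC pairs lie within the cloud of the others, and the point at 72.9 and 44.9 is the strongest peak.

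Folds of the 80 pairs were related between the lists, with a Spearman's rho of 0.48 and, for log2 folds, a Pearson's r of 0.68. Both are descriptions across peaks of 2 libraries. In 50 pairs the fold was higher in replicate 2, with a median log2 ratio of 0.18 (SD 0.54 over pairs), and on the other autosomes the median was 0.25 (SD 0.64, 1096 pairs). With recovered fragments over the genome background the direction turned: replicate 2 was the higher in 26 of the 80 pairs (median −0.23) and in 455 of the 1096 on the other autosomes (median −0.12). In the MHC window the fold of replicate 2 was the higher in 14 of 23 pairs, and the median log2 ratio was 0.21 (SD 0.53). There too the direction turned over the genome background, to 8 of 23 pairs and a median of −0.095. Paired summits lay a median of 83 bp apart on chromosome 17 and 57 bp on the other autosomes.

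The widest peaks differed in kind. In replicate 1 the widest, 6855 bp from 23953392 to 23960246, had a fold of 12.2 and was shared. In replicate 2 a peak of 5747 bp at 45702688 to 45708434 had a fold of 8.10, and the third widest was the MHC peak of 3744 bp given above. A site of very high background was wide in both lists. It was split into 3 peaks in replicate 1, from 39979976 to 39985750, and formed 1 peak of 5769 bp in replicate 2, from 39979985 to 39985753. Its largest peak in replicate 1, 3680 bp wide, had a fold of only 4.06 from 296 fragments, since the local background was 72.1 fragments, and in replicate 2 the fold was 4.19 from 400 fragments. The background of replicate 1's peaks there reached 41.0 times the genome level. Whether the ChIP signal at this site depends on that background was not tested.

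The window from 15 to 16 Mb also had a raised background, with a median of 3.29 times the genome level in replicate 1 and of 2.76 times in replicate 2. It held 9 and 12 peaks, of which 7 and 8 were shared, with folds of up to 10.4 and 8.29. In all, 59 of 296 peaks of replicate 1 and 16 of 148 of replicate 2 on chromosome 17 had a background above 2 times the genome level, as had 816 of 4620 and 184 of 2112 on the other autosomes.

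Some stretches were occupied in replicate 1 alone, and 2 of them are named after their values had been seen. The window from 26 to 27 Mb, inside the dense stretch, held 8 peaks of replicate 1 and none of replicate 2. Among them was the unshared peak of replicate 1 with the highest −log10 q (46.9) on the chromosome. Located at 26641414 to 26645386, it covered 3973 bp, with a fold of 10.7 from 71 fragments, and lay 531 kb from any peak of replicate 2. A peak at 26852650 to 26853113 with a fold of 6.84, also unshared, was in the same window. The window from 87 to 88 Mb held 10 peaks of replicate 1, from 87362676 to 87846227, and none of replicate 2. Their folds were low, between 3.74 and 5.60, with 12 to 20 fragments each.

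The other strong unshared peaks of replicate 1 were at 9924092 to 9924393 (fold 9.46, 4313 kb from any peak of replicate 2), at 29237827 to 29238098 (fold 8.97, 5.86 kb away) and at 24356580 to 24357698 (fold 9.15, 0.382 kb away). In replicate 2 the strongest was at 48171302 to 48171772, with a fold of 9.80 and 70 fragments, 377 kb from any peak of replicate 1. Those at 81643550 and 81253931 had folds of 7.28 and 6.09 and lay 609 and 219 kb away. At 15126592 and 45594259 the folds were 4.81 and 5.53, and a peak of replicate 1 was within 0.880 kb of each.

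Many unshared peaks of chromosome 17 lay near a peak of the other list without touching it. Of 190 unshared peaks of replicate 1, 67 (35.3%) were within 10 kb of a peak of replicate 2, against 20.4% of the 3400 on the other autosomes. Of 59 in replicate 2, 33 (55.9%) were within 10 kb of a peak of replicate 1, against 48.6%. These shares were not tested, and neither was their relation to chromosome 17's higher density, given above. In replicate 1, 87 of the 190 unshared peaks were over 100 kb from any peak of replicate 2, against 1975 of 3400 on the other autosomes. In replicate 2, 11 of 59 lay that far from a peak of replicate 1, against 267 of 977.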

How the data were processed

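The data were 2 peak lists, 1 per SSRP1 ChIP sample of E14 cells, each called on its own sample, as the deposited peak names show. STAR, MACS2, deepTools and mm9 are named in the submitters' processing notes without roles; for versions, thresholds and controls, the sources used here say nothing. The deposited values are the authors' fold enrichment (a ratio), −log10 p, −log10 q and a score (10 times the −log10 q, rounded down), which was not used. Starts were shifted to count from 1.

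Chromosome 17 was taken by name, and peaks were counted in 1 Mb windows by summit. Density used the span from the first to the last peak of either list. Sharing and shares were compared by two-sided Fisher tests in scipy 1.17.1. Their p-values were adjusted by the Benjamini-Hochberg method in statsmodels 0.14.6 over 19 autosomes, or over 3 tests of the MHC window, at a threshold of 0.05. Shares have exact Clopper-Pearson 95% intervals, for counting error only. Fragments and backgrounds were solved from fold and p-value by MACS2's formulas, matching 100% of peaks within 0.001 in −log10 p. The genome level is the lowest background, 2.28 in replicate 1 and 2.07 in replicate 2, as scaled counts. Backgrounds of replicate 2 are on the scale where 1 ChIP fragment counts as 0.416. The 10 strongest pairs (by the lower of both folds), 5 strongest unshared and 3 widest peaks per list, 5 windows with the most shared peaks of replicate 1 and 5 longest gaps are named; other items were chosen after their values were seen. The members, the window and the rules were chosen with earlier results of these data known. Code was tested on simulated data (Python 3.11.15, pandas 2.3.3).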

Additional observations from a re-analysis of the deposited data

How the results depend on the processing

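Odds ratios below are for chromosome 17's shared fraction in replicate 1 (1.55 in the report), then for that of the MHC window in replicate 1 (2.22). They were 1.38 and 0.960 with −log10 q of 10 or more, 1.04 and 1.21 with 50% overlap, 1.17 and 1.58 with summits within 200 bp, 1.11 and 2.60 after joining peaks within 1 kb, 1.49 and 1.49 with equal list lengths, and 1.43 and 2.03 without the window from 34 to 35 Mb; none of these passed the test. The MHC value was 1.41 with −log10 q of 5 or more and 2.25 without high-background peaks, also not passing. Fewer peaks or regions are compared in these, except under the overlap rules. Why the odds ratios and calls changed was not tested. Values that never passed the test changed direction in 3 cases: chromosome 17's shared fraction in replicate 2 (1.30) was 0.917 with 50% overlap, its share between the lists (1.09) was 0.943 with −log10 q of 10 or more, and the MHC shared fraction in replicate 2 (0.965) was 1.31 after joining. The median log2 fold ratio went from 0.18 to −0.23 with fragments over the genome background.

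The MHC window held 36 and 27 peaks with −log10 q of 5 or more, 10 and 8 with 10 or more, 33 and 23 after joining, and 35 and 25 without the window from 34 to 35 Mb. Replicate 2's density rank, 2, became 1 and 3 with the −log10 q minimums, and 69 windows were empty in replicate 1 with the higher one. Windows with 5 or more shared peaks, 10 in the report, numbered 1 with −log10 q of 10 or more, 2 with 50% overlap, 4 with summits within 200 bp, 2 after joining and 4 without high-background peaks. Of 89 recomputed values 55 kept their direction and side of the threshold or size. Leaving out the window from 34 to 35 Mb and the high-background peaks were chosen after seeing the data. No paired analysis was possible because only the inputs repeat the ChIPs' numbers and none of their values were analysed here, and with a replicate left out no overlap can be formed. The weakest summits rest on 11 fragments in replicate 1 and 27 in replicate 2.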
